A study of Mus musculus with 4 samples.

Results

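Lung and primary tumour of the same tumour-bearing animals were compared by choosing, in each section, the spots richest in a set of transcripts taken as markers of the injected carcinoma cells. A spot is a small barcoded region of a slide, usually with more than 1 cell and more than 1 cell type in it. The T score of a spot was the share of its unique molecular identifiers (UMIs, counts of captured molecules) that fell on Csf3, Mmp3, Plau, Fscn1, Hmga2, Tns4 and Wnt7b. The A score was the same share for genes of alveoli and small airways, namely Sftpc, Sftpa1, Ager and Scgb3a2, 4 of the 6 genes of its definition (Sftpb and Scgb1a1 were not analysed here). On the lung side the spots in the top 10% of a section by T and at or under its median by A were taken, and on the primary side the top 10% by T. Of 8382 spots with over 200 genes and 1000 or more UMIs, among 9445 under tissue, 386 lung spots (116 in Mouse_627 and 270 in Mouse_628) and 393 primary tumour spots (161 and 232) were chosen. The members were therefore selected on measured values of 11 genes, and the levels of these genes are given without a test.

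The 4 sections came from the lung and the mammary primary tumour of 2 BALB/c mice. Both animals had received 100000 cells of the metastatic BALB/c mammary carcinoma line 4T1 into the mammary fat pad at 8 weeks of age and were sacrificed after 28 days. No animal without tumour was included, so lung and tumour tissue both come from injected mice with an intact immune system, and every lung sum has its primary tumour counterpart from the same mouse (n = 2 sections per tissue). Fixed, paraffin-embedded tissue was profiled with Visium probes, and UMIs of the chosen spots were summed per section, which gave 747982 and 4880697 UMIs for the lungs of Mouse_627 and Mouse_628 and 1379624 and 3317156 for the primary tumours. Levels below are UMIs of a gene after each sum was scaled to 1000000 (CPM). Probes for olfactory and vomeronasal receptors, which neither tissue is known to use, took 0.0159% and 0.0144% of UMIs in the lung sums and 0.0728% and 0.247% in the primary tumour sums, and the part of this unspecific signal in the results was not tested.

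In spontaneous metastasis, carcinoma cells leave the primary tumour, lodge in lung capillaries and grow as foci among alveoli, airways and vessels. Foci and primary tumour therefore share the carcinoma cells but not the stroma, the vascular bed, the immune cells or the distance to oxygen. The comparison asks which transcripts differ between the spots highest by T at the 2 sites, with a ceiling on alveolar transcripts on the lung side.

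Chosen spots were clustered in space. In the lungs 81.9% (Mouse_627) and 93.0% (Mouse_628) of them had at least 1 chosen neighbour, and in the primary tumours 75.8% and 76.7%. They fell into 34 and 38 patches in the lungs, the largest of 34 and 71 spots, and into 59 and 81 patches in the primary tumours, the largest of 33 and 81 spots. Among all array neighbours of chosen spots, 47.2% and 56.0% were chosen in the lungs and 33.1% and 42.8% in the primary tumours, while the share over the neighbours of all spots lay between 6.80% and 10.0% in the 4 sections.

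**Figure D1:**
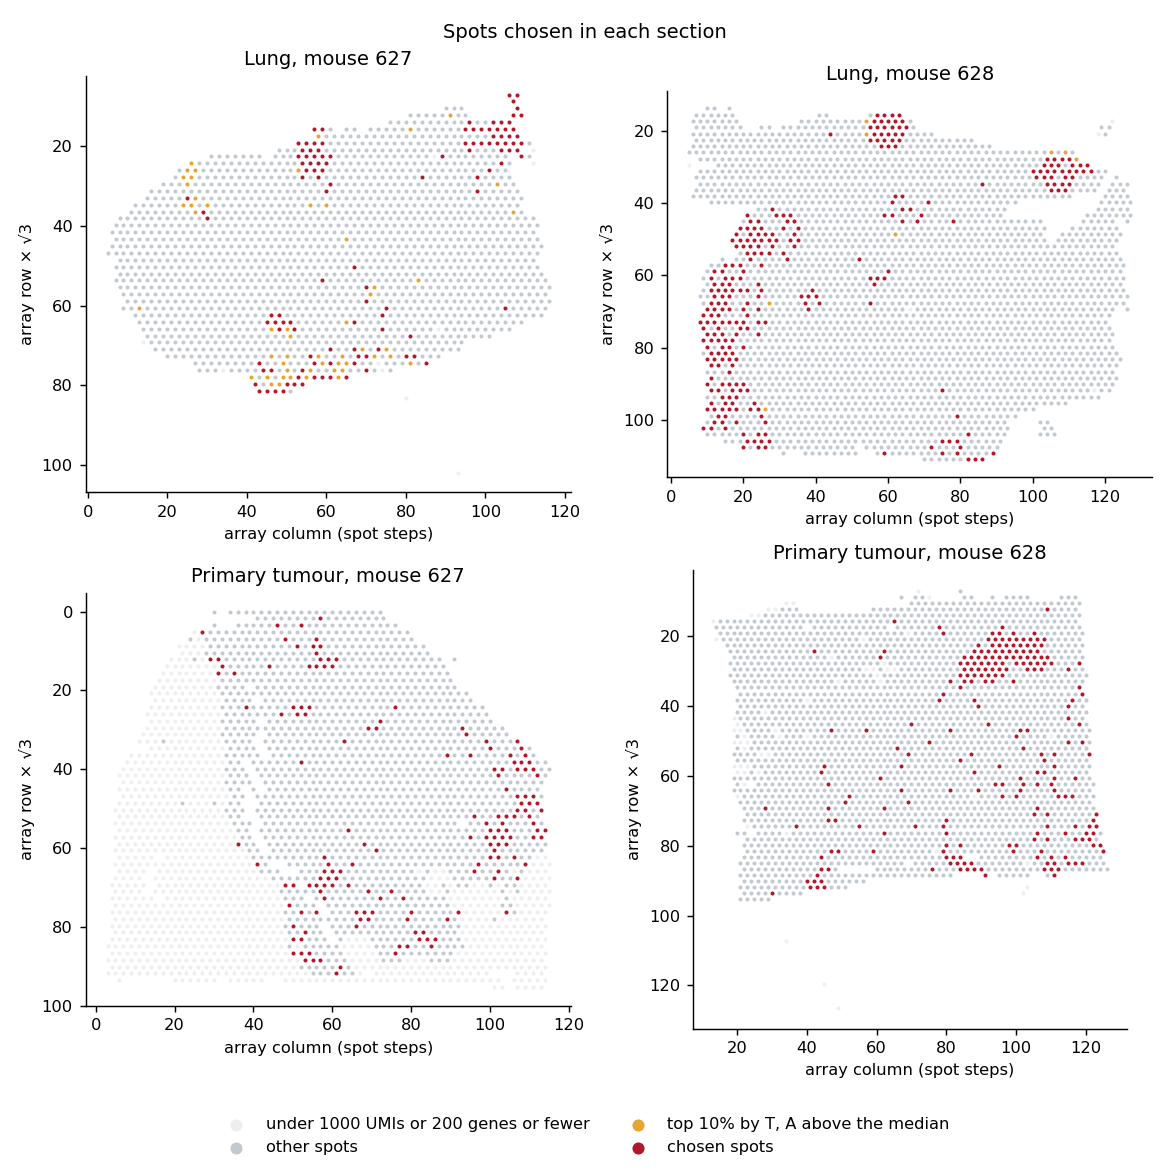
Position of the chosen spots (red) in the 4 sections, plotted by array column and by array row multiplied by the square root of 3. Spots in the top 10% by T whose A score exceeded the median of the lung are orange, other spots grey, and spots with too few genes or UMIs pale grey, and the largest patch of each lung held 34 and 71 spots.

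The threshold meant different things in the 4 sections, because it was a share of each section. The T score of the chosen spots ran from 0.0511% to 0.379% of UMIs in the lung of Mouse_627 and from 0.285% to 0.572% in that of Mouse_628. In the primary tumours it ran from 0.697% to 1.15% in Mouse_627 and from 0.657% to 1.74% in Mouse_628. The nearest spots outside the limit had 0.0510%, 0.285%, 0.697% and 0.655% in the same order, so neither side was separated from the rest of its section by a gap. At the A ceiling the nearest spots inside and outside had 1.21% and 1.22% in Mouse_627 and 0.722% and 0.798% in Mouse_628. In the lung of Mouse_627 the median spot had no UMI on any of the 7 genes.

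The label of lung-poor metastasis was checked with genes outside both scores, and in Mouse_627 the data went against it. As a description of what the rule chose, summed over the T score genes, the chosen spots had 1213 CPM in the lung of Mouse_627 and 3313 in that of Mouse_628, against 7841 and 9027 in the primary tumours. Summed over the measured A score genes, they had 7050 CPM in Mouse_627 and 1811 in Mouse_628, against 19548 and 19035 in the alveolar-rich spots of the same lungs, a gap that follows from the choice of both by A (alveolar-rich spots were the top 10%). Over 10986 genes, the log2 CPM of the chosen lung spots of Mouse_627 had a Pearson correlation of 0.912 with the remaining spots of the same lung, of 0.954 with those of the lung of Mouse_628 and of 0.743 and 0.753 with the chosen spots of the primary tumours. For Mouse_628 the correlation was 0.907 with the remaining spots of the same lung, and 0.90 and 0.897 with the primary tumours. It was lower with the alveolar-rich spots of the same lung (0.811, where Mouse_627 had 0.899) and with the remaining spots of the lung of Mouse_627 (0.676). The remaining lung spots of Mouse_628 held T score genes too, at 1286 CPM in sum against 115 in those of Mouse_627. Nearness to them is therefore not nearness to lung tissue alone. These correlations are across genes, which are not independent replicates, and are given as a description. In Mouse_627 the lung genes outside the score had list medians of 47.4% to 86.5% of their level in alveolar-rich spots, as described below. The chosen lung spots of Mouse_627 are therefore called T-high lung spots below, and results are given for each mouse. On the primary side, Mmp3 alone held 4432 and 5563 CPM of the T score sum. Carcinoma keratin and adhesion genes summed there to 841 and 1093 CPM in chosen spots and 826 and 1090 in other spots. Mitotic genes summed to 1779 and 1561 CPM in chosen and 1704 and 1553 in other primary tumour spots. By these lists the chosen primary tumour spots were little different from the rest of their section.

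Single score genes did not share 1 ratio between the sites. Mmp3, a stromelysin, had 193 and 1106 CPM in the lungs of Mouse_627 and Mouse_628 and 4432 and 5563 in the primary tumours. Csf3, which encodes the granulocyte growth factor G-CSF, had 52.1 and 388 CPM in the lungs and 1356 and 1511 in the primary tumours. Both were thus lowest in the lung of Mouse_627 and remained under both primary tumours in Mouse_628. Plau, the urokinase plasminogen activator, had 187 and 667 CPM against 411 and 355, and Fscn1, an actin bundling protein, had 337 and 480.3 CPM against 385 and 339. For these 2 genes the lung of Mouse_628 was the highest of the 4 sums. Hmga2 (108 and 163 CPM against 385 and 427), Tns4 (139 and 270.0 against 452 and 459) and Wnt7b (197 and 238 against 421 and 373) were lower in both lungs. In Mouse_628 the lung level was between 19.9% (Mmp3) and 188% (Plau) of that in the primary tumour, which is the range of the genes that chose the spots.

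Lung transcripts outside the score were left over in both lungs, far more in Mouse_627. Taking for each list the median over its genes with 20 CPM or more in alveolar-rich spots of the level in chosen spots as a share of the level in alveolar-rich spots, alveolar type 2 genes (the surfactant-secreting cells) stood at 52.3% in Mouse_627 and 14.8% in Mouse_628. Alveolar type 1 genes (the flat gas-exchange cells) stood at 50.4% and 10.8%, lung capillary genes at 47.4% and 14.5%, lung mesenchyme genes at 47.6% and 14.7%, and lung identity transcription factors at 50.6% and 24.8%. Airway genes stood at 86.5% in Mouse_627 (12 genes) and 11.2% in Mouse_628 (6 genes, without Reg3g and Bpifa1, which were under 20 CPM there). Cxcl15, a chemokine of lung epithelium, had 501 and 77.7 CPM in the chosen lung spots and no UMI in either primary tumour sum, which makes it at least 785-fold higher in Mouse_627 and at least 122-fold higher in Mouse_628 against the limit that 3 UMIs over both primary sums allow. Nkx2-1, the transcription factor of lung epithelium, had 68.2 and 16.0 CPM against 0 UMIs, at least 107-fold and at least 25-fold higher by the same limit. Sec14l3, which belongs to the list of airway genes and to that of alveolar type 1 genes, had 501 and 38.7 CPM against 0 UMIs (at least 785-fold and at least 60.6-fold higher).

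Airway genes were uneven in the T-high spots of Mouse_627. Reg3g, an antimicrobial lectin of airway epithelium, had 1028 CPM there against 93.0 in alveolar-rich spots of the same lung, and 66.4 against 13.6 in Mouse_628. Bpifa1, a secreted airway protein, had 332 CPM against 31.0 in Mouse_627 and 33.8 against 7.50 in Mouse_628. Cyp2f2, a cytochrome of club cells, had 826 CPM against 974 in alveolar-rich spots of Mouse_627, and Cbr2, a carbonyl reductase, 464 against 743, so these members were lower there. In the other lung spots of Mouse_628, Reg3g had 293 CPM and Bpifa1 175, well above the chosen spots, while in those of Mouse_627 they had 172 and 54.7, below the chosen spots. The airway list took a median of 0.186% of a spot's UMIs in the chosen spots of Mouse_627 and 0.186% in its other spots. Genes of heart muscle were present as well, with Myh6, the alpha cardiac myosin, at 118 and 39.1 CPM in the lungs and 0 and 1.81 in the primary tumours. Chosen lung spots thus held transcripts of airway epithelium and of cardiac muscle that the A ceiling had not removed. Bulk levels such as these cannot tell fewer cells of a type from less RNA per cell.

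**Figure D2:**
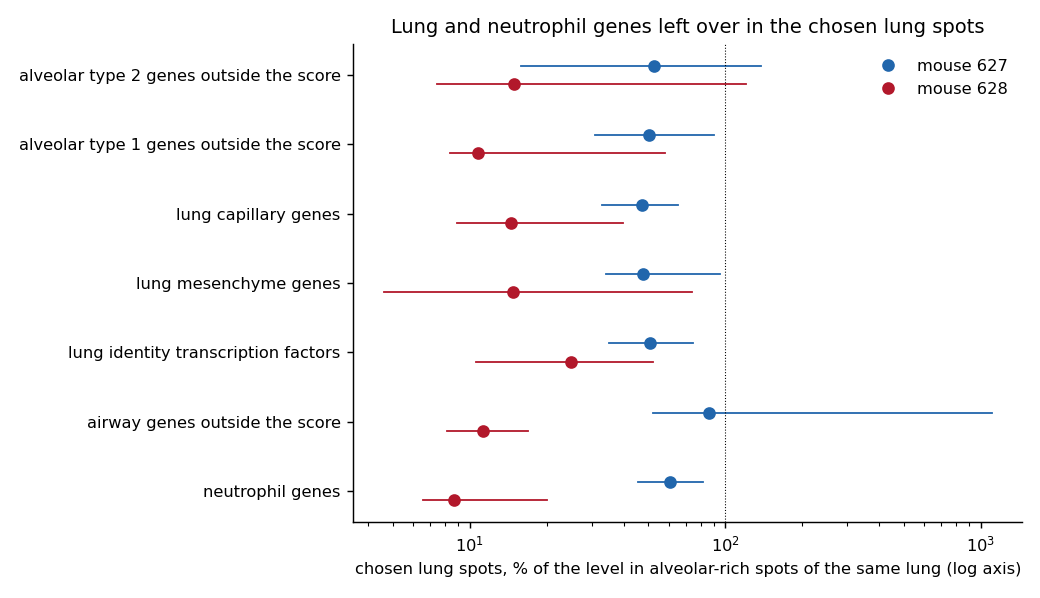
Level in the chosen lung spots as a percentage of that in the alveolar-rich spots of the same lung (log axis), with the median (point) and the lowest to highest gene at 20 CPM or more in alveolar-rich spots (line) of each list, for Mouse_627 (blue) and Mouse_628 (red). Medians lay between 47.4% and 86.5% for the lung lists in Mouse_627 and between 10.8% and 24.8% in Mouse_628.

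Sums were then compared over all genes with edgeR (quasi-likelihood test, p-values adjusted after Benjamini and Hochberg), with n = 2 sections per tissue. Of 10986 genes tested, 3 passed an adjusted p-value of 0.05 and all 3 were lower in the lung (0.0273% of genes), while 0 were higher (0% of genes). At an unadjusted p-value under 0.05 there were 1725 genes, 995 higher and 730 lower in the lung, and DESeq2 called 393 (278 higher and 115 lower). Since both tissues of a mouse come from 1 animal, the model was also fitted with the mouse as a block. It called 65 genes, 45 higher in the lung (0.410% of genes) and 20 lower (0.182%), the 3 of the unblocked model among them. On simulated counts both models called more unchanged genes than the threshold allows, 15 without the block and 36 with it. Each model had its own single draw, without a difference between mice, so the draws cannot rank the models. Calls made with the block alone passed in 1 model only and are taken as the less certain. Simulated log2 changes of 1 were recovered for 2.06% of genes without the block and 7.14% with it, and changes of 2 for 58.6% and 73.5%. Genes without a call are therefore not shown to be unchanged. The lung, airway and heart genes named above passed only with the block, by edgeR. Their adjusted p-values lay between 0.223 and 0.230 without it, and with it stood at 0.00591 for Cxcl15, Sec14l3, Bpifa1 and Cbr2, 0.0250 for Reg3g, 0.0359 for Nkx2-1, 0.0424 for Cyp2f2 and 0.0486 for Myh6. A change of 2-fold or more in the same direction in both mice was seen for 607 genes higher in the lung (5.53%) and 218 lower (1.98%). Both lung sums were above both primary sums for 29.1% of genes and below both for 20.3%. An exact permutation test of a single gene cannot go below p = 0.333 with 2 sections against 2. In the alveolar-rich spots of both lungs, 431 of the 607 higher genes (71.0%) and 38 of the 45 were higher still, against 26.5% of all genes. Of the 218 lower genes, 107 (49.1%) were lower still there, against 50.5% of all genes. The part of lung left over in the spots in these results was not tested.

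**Figure D3:**
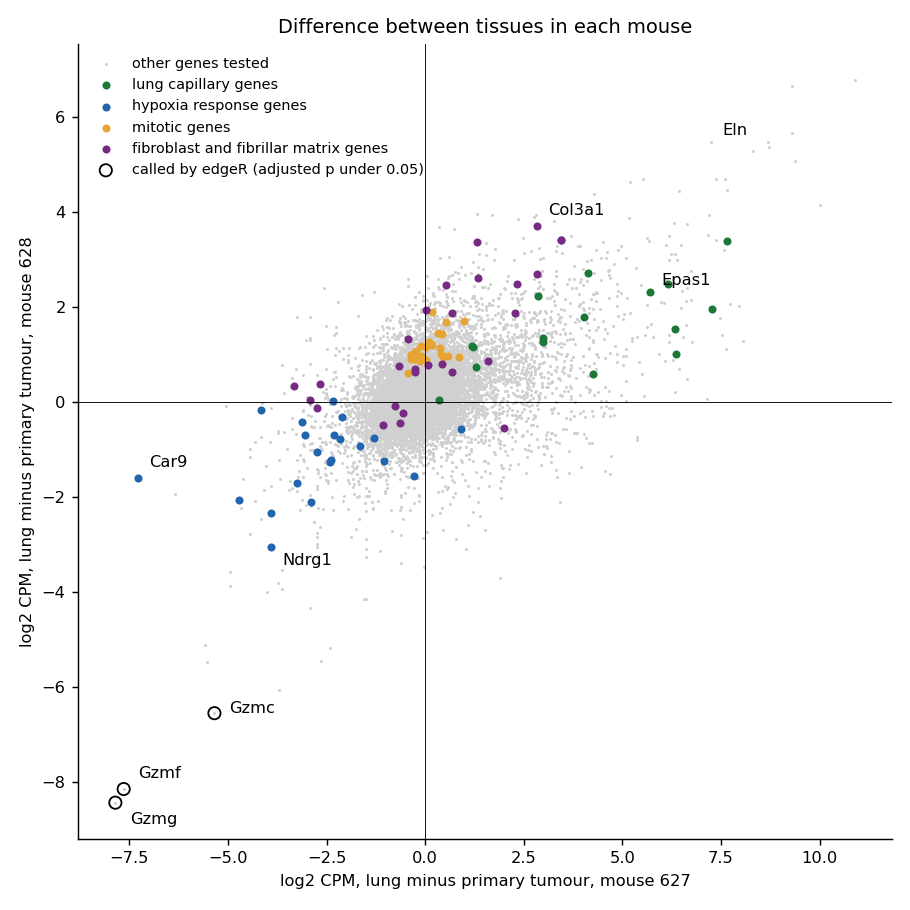
Difference in log2 CPM between chosen lung and chosen primary tumour spots for each of 10986 genes, with Mouse_627 on the x axis and Mouse_628 on the y axis. Colours mark genes of 4 lists and circles the 3 genes called by edgeR, which lie at the lower left, at differences of -7.86 and -8.43 for Gzmg.

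The genes called were granzymes, serine proteases of cytotoxic granules that are delivered into target cells with perforin. Gzmg had 4.01 and 2.46 CPM in the chosen lung spots of Mouse_627 and Mouse_628 and 1071 and 1094 in the primary tumours. Gzmf had 2.67 and 2.46 CPM against 668 and 897, and Gzmc 4.01 and 1.64 against 187 and 221. Both lungs stood near the floor and both primary tumours close together. By edgeR, Gzmg fell by 8.67 on the log2 scale with a standard error of 0.42 (adjusted p = 0.0113). Gzmf fell by 8.38 with a standard error of 0.43 (adjusted p = 0.0113 by edgeR) and Gzmc by 6.68 with a standard error of 0.48 (adjusted p = 0.0483 by edgeR). Over the 18 other settings the adjusted p-value of edgeR or DESeq2 did not exceed 0.0477 for Gzmg, 0.0723 for Gzmf and 0.0981 for Gzmc. Relative to the primary tumour of the same mouse, Gzmg stood at 0.375% in Mouse_627 and 0.225% in Mouse_628.

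Spot by spot, Gzmg was seen in 3 of 116 chosen lung spots of Mouse_627 (2.59%, 95% Clopper-Pearson interval 0.537% to 7.37%) and in 11 of 270 of Mouse_628 (4.07%, 2.05% to 7.17%). In the primary tumours it was seen in 151 of 161 chosen spots of Mouse_627 (93.8%, 88.9% to 97.0%) and 171 of 232 of Mouse_628 (73.7%, 67.6% to 79.2%). Such intervals hold the counting error alone. The lung spots of Mouse_628 were the deepest, with a median of 17520 UMIs against 8184 in the primary tumour spots of that mouse. Other spots of the primary tumours held Gzmg too, at 86.9% in Mouse_627 and 54.9% in Mouse_628, and other lung spots at 0.955% and 2.71%, so the transcript was not limited to the chosen spots of the primary tumours.

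Further cytotoxic genes shared the pattern. Gzme had 0 and 1 UMI in the lung sums and 48 and 139 in the primary sums, and Fcrl6, an Fc receptor-like gene of cytotoxic lymphocytes, had 36.2 and 32.9 CPM in the primary tumours with 1 UMI in both lung sums together. Prf1, which encodes perforin, had 6.68 and 0.820 CPM in the lungs and 92.8 and 103 in the primary tumours. None of these 3 passed without the block (adjusted p = 0.0892, 0.0892 and 0.223 by edgeR) and each passed with it (0.0187, 0.0205 and 0.0367). Gzmb had 12.0 and 0.820 CPM against 76.1 and 67.8 and passed in neither model (adjusted p = 0.236, and 0.0849 with the block, by edgeR). Gzma, a tryptase-like granzyme, had 36.1 and 18.4 CPM against 44.2 and 22.3, with an adjusted p-value of 0.735 by edgeR. Of the 9 tested T and NK cell genes, the list that holds Prf1, Gzma and Gzmb, 1 fell with the block and 3 were 2-fold or more lower in both mice, and the median of their log2 fold changes was -0.39, where that of all 10986 genes was 0.06. DESeq2 called 2 of the 9 lower. Gzmg, Gzmf, Gzmc, Gzme and Fcrl6 are on no list and were named by rank.

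Gzmg, Gzmf, Gzmc and Gzme are neighbours on chromosome 14 and near-identical in sequence, so UMIs could have been assigned to the wrong member and their separate levels are uncertain. Their promoters are shown because the 4 genes were low together. Windows of 300 bases (250 before the start to 50 after it, RefSeq, GRCm38.p6, minus strand) lie at chr14:56159530-56159829 (Gzmg), chr14:56211358-56211657 (Gzmf), chr14:56234608-56234907 (Gzmc) and chr14:56120576-56120875 (Gzme), all within 114332 bases. Capitals mark the longest run of bases that all 4 windows hold, found by a search of their common substrings.
Gzmg: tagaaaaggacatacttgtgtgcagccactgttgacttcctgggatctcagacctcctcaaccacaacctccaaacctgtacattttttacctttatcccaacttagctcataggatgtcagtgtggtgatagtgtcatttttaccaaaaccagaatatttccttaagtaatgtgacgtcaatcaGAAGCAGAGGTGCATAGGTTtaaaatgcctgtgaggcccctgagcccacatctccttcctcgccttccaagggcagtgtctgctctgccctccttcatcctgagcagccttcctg
Gzmf: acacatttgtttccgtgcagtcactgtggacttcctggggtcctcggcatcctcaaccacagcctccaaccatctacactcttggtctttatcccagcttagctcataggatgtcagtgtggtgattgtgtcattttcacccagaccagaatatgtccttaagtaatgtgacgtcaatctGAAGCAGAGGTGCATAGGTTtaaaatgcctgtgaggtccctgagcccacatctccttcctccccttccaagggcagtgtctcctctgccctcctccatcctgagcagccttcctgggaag
Gzmc: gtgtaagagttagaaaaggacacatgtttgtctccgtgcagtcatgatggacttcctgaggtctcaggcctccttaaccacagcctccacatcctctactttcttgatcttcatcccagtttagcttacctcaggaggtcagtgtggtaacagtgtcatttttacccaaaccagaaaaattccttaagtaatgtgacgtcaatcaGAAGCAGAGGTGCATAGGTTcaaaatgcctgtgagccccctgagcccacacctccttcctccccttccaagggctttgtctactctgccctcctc
Gzme: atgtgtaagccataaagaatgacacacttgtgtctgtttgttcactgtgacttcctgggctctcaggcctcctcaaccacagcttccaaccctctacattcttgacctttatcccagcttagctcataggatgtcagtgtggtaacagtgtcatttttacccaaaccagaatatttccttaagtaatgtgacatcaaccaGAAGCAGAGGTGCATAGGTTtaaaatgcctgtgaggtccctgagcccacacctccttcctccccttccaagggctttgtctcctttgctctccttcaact
The run of 20 bases, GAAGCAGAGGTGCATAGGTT, started 65, 70, 45 and 50 bases before the annotated start of Gzmg, Gzmf, Gzmc and Gzme. Searched on both strands, it was found in the windows of 5 of 27025 genes, the other being Gzmd, a further member of the cluster. The match describes the relatedness of the windows and names no factor.

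Most hypoxia response genes, which are switched on by HIF transcription factors when oxygen is short, had lower levels in the lung spots. Of 22 tested members, 19 were lower in both mice (27.3% of all genes were) and 1 was higher (33.6% of all genes were). By 2-fold or more in both mice, 10 were lower (1.98% of all genes) and 1 was higher (5.53%). By edgeR 0 passed without the block and 3 fell with it (0.182% of all genes), while DESeq2 called 8 lower and 1 higher. Their median log2 fold change was -1.27, with -2.40 in Mouse_627 and -0.99 in Mouse_628. Ndrg1, a stress-responsive gene, had 36.1 and 81.1 CPM in the lungs and 529.9 and 668 in the primary tumours, which is -3.40 on the log2 scale with a standard error of 0.42 (adjusted p = 0.190 by edgeR, 0.0187 with the block). Slc2a1, the glucose transporter GLUT1, had 140.4 and 327 CPM against 999.5 and 1373 (log2 fold change -2.44, adjusted p = 0.223 by edgeR, 0.0404 with the block). Adm, the vasodilator peptide adrenomedullin, had 8.02 and 30.3 CPM against 126 and 153 (log2 fold change -2.79, adjusted p = 0.223 by edgeR, 0.0378 with the block). All 3 genes were below both primary tumours in each lung.

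Within the hypoxia list the mice differed most for Car9, the cell-surface carbonic anhydrase of hypoxic cells. It had 5.35 CPM in Mouse_627 and 322 in Mouse_628, against 912 and 957 in the primary tumours, and passed in neither model (adjusted p = 0.385, and 0.211 with the block, by edgeR). Car9 was seen in 4 of 116 chosen lung spots of Mouse_627 and in 183 of 270 of Mouse_628, and in 149 of 161 and 208 of 232 primary tumour spots. The lung level of Mouse_628 was 3600% of that in its alveolar-rich spots (8.93 CPM) and 33.6% of the level of its primary tumour. Egln3, an oxygen-sensing prolyl hydroxylase, had 160.4 and 305 CPM against 829.9 and 718 (adjusted p = 0.223 by edgeR, 0.0914 with the block). The member that was higher in the lung, Lox, encodes a collagen cross-linking enzyme that connective tissue also makes, and had 16.0 and 13.9 CPM against 0.725 and 0.603. Its primary levels rest on 3 UMIs over both sums, against 80 in the lungs. Lox was higher still in alveolar-rich spots, the chosen spots standing at 81.9% and 44.8% of that level. Within Mouse_628 the hypoxia list took a median of 0.182% of a chosen lung spot's UMIs, with the middle 90% of spots between 0.0911% and 0.713%, and 0.642% of a primary tumour spot's (0.392% to 1.03%). In Mouse_627 it took 0.105% (0.0402% to 0.184%) against 0.595% (0.381% to 0.886%). The ranges of the sites overlapped in Mouse_628 and not in Mouse_627. In the other lung spots the hypoxia list took a median of 0.0972% in Mouse_627, close to that of the chosen spots, and 0.106% in Mouse_628.

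Promoters of Car9 and Slc2a1 are shown with the letters ACGTG, the core to which HIF factors are known to bind, searched on both strands and printed in capitals where found (RefSeq, GRCm38.p6, plus strand, chr4:43506776-43507075 and chr4:119108495-119108794).
Car9: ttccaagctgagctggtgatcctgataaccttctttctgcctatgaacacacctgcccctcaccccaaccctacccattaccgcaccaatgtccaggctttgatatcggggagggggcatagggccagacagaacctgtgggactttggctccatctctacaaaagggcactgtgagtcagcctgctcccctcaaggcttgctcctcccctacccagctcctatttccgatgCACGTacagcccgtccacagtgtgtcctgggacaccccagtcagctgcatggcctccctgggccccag
Slc2a1: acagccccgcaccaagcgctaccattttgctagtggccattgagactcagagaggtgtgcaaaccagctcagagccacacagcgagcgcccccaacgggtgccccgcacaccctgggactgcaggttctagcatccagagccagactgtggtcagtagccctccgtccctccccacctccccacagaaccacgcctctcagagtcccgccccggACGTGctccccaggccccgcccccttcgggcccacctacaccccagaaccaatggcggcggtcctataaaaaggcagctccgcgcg
Of the 24 hypoxia genes listed, 18 had a window in the table, and 13 of the 18 (72.2%) held ACGTG, against 21.8% of all 27025 genes with a window. The list was made of known hypoxia genes, so this describes its choice rather than the sections, and a match is no proof of a site in use.

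Glycolysis and lactate export genes followed in the same direction with smaller differences. Of 16 tested members, 11 were lower in the lung in both mice (27.3% of all genes were), 1 was 2-fold or more lower in both, and 0 passed with or without the block by edgeR (10 at an unadjusted p-value under 0.05, of them 9 lower), while DESeq2 called 2 lower. Pkm, pyruvate kinase, had 1017 and 1872 CPM against 3153 and 3389, and Pfkp, a phosphofructokinase, had 97.6 and 159 against 266 and 274. Eno2, an enolase, had 12.0 and 55.3 CPM against 157 and 168 (adjusted p = 0.236, and 0.0812 with the block, by edgeR). The median log2 fold change of the list was -0.88, with -1.30 in Mouse_627 and -0.81 in Mouse_628.

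Cxcl1, Cxcl3 and Cxcl5, chemokines that draw neutrophils through the receptor CXCR2, were low in the lung spots of both mice. Cxcl5 had 4.01 and 26.0 CPM in the lungs and 141 and 315 in the primary tumours, Cxcl3 had 1.34 and 5.12 against 62.3 and 84.4, and Cxcl1 had 20.1 and 45.1 against 127 and 276. Ptgs2, the inducible cyclooxygenase of prostaglandin synthesis, had 56.2 and 134 CPM against 446 and 591. Each of these 4 genes was below both primary tumours in both lungs. Without the block none passed (adjusted p = 0.223, 0.190, 0.223 and 0.223 by edgeR), and with it all 4 fell (0.0166, 0.0187, 0.0250 and 0.0359). They are the 4 block calls among the 20 tested G-CSF and myeloid chemokine genes, whose median log2 fold change was -0.46. Of the 20, 5 were 2-fold or more lower in both mice and 2 (Cxcl12 and Ccl5) 2-fold or more higher, and DESeq2 called 4 lower.

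Neutrophil transcripts differed in level between the lungs. S100a9, an alarmin of neutrophils that the list of G-CSF and myeloid chemokine genes also holds, had 19288 CPM in the T-high lung spots of Mouse_627 and 1816 in the chosen lung spots of Mouse_628, against 1189.5 and 4575 in the primary tumours. In alveolar-rich spots it stood at 33416 and 21633 CPM. Ngp, a granule protein of immature neutrophils, had 3046 and 373 CPM against 15.2 and 138. Over the 16 tested neutrophil genes the median difference in log2 CPM was 4.12 in Mouse_627 and 0.09 in Mouse_628. The lungs were thus far apart, and by edgeR 0 of the 16 genes passed with or without the block (7 at an unadjusted p-value under 0.05, all higher), while DESeq2 called 1. As a share of alveolar-rich spots, the list stood at 60.6% in Mouse_627 and 8.69% in Mouse_628.

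Single macrophage genes went both ways, and the list as a whole differed in sign between the mice. Spp1, osteopontin, a secreted matrix protein of macrophages and of some carcinoma cells, had 632 and 1088 CPM in the lungs and 3056 and 5172 in the primary tumours (log2 fold change -2.36, adjusted p = 0.223 by edgeR, 0.0533 with the block). Mrc1, the mannose receptor CD206, had 114 and 279 CPM against 60.9 and 41.3, and the scavenger receptor gene Cd163 had 21.4 and 28.3 against 1.45 and 4.82. Mrc1 was above the alveolar-rich level of the same lung in both mice (53.9 and 139 CPM). Nos2, the inducible nitric oxide synthase, had 48.1 and 44.9 CPM against 208 and 92.9. Of 18 tested macrophage and monocyte genes, 2 were 2-fold or more higher in both mice, 3 were 2-fold or more lower and 0 passed in either model (5 at an unadjusted p-value under 0.05 by edgeR), while DESeq2 called 2 higher and 2 lower. The list's median difference in log2 CPM was -0.21 in Mouse_627 and 1.60 in Mouse_628. The median of the fitted log2 fold changes was 0.64, and it turned to -0.19 when all primary tumour spots were used.

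Of 27 tested genes of fibroblasts and fibrillar matrix, 14 were higher and 5 lower in the lung spots of both mice. Of all genes, 33.6% were higher and 27.3% lower in both. Col3a1, the collagen III chain of loose connective tissue, had 802 and 663 CPM in the lungs and 107 and 49.4 in the primary tumours, which is 3.20 on the log2 scale with a standard error of 0.43 (adjusted p = 0.193 by edgeR, 0.0197 with the block). In Mouse_627 this was above the alveolar-rich level (338 CPM), in Mouse_628 just below it (782 CPM). Col1a2 had 447 and 477 CPM against 169 and 76.6 and was above the alveolar-rich level in both lungs (270.1 and 410.3 CPM), without a call in either model (adjusted p = 0.223, and 0.0822 with the block, by edgeR). Col1a1 had 366 and 687 CPM against 349 and 177. Fn1, fibronectin, had 1176 and 1635 CPM against 2369 and 2258, the opposite order. Of the 27, 7 were 2-fold or more higher in both mice, 0 were 2-fold or more lower and 1 rose with the block, with a median log2 fold change of 0.64, while DESeq2 called 6 higher.

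The 10 leading genes on the higher side were taken by the smallest unadjusted p-value, because none was called. Sparcl1, a matricellular protein of vessels, had 169.8 and 208 CPM in the lungs and 22.5 and 12.7 in the primary tumours (log2 fold change 3.40, adjusted p = 0.145 by edgeR, 0.0197 with the block). Eln, elastin, had 237 and 87.9 CPM against 0.725 and 1.21 (0.190, and 0.00591 with the block, by edgeR). Ptgis, the prostacyclin synthase, had 90.9 and 59.6 CPM against 4.35 and 2.71 (adjusted p = 0.178 by edgeR, 0.0166 with the block). Ccdc80, a secreted matrix-associated protein, had 40.1 and 56.1 CPM against 5.07 and 3.01 (adjusted p = 0.190 by edgeR, 0.0424 with the block). Heyl, Gpx3, Sulf1, Atp1b1, Tbx2 and 1700007K13Rik completed the 10, with adjusted p-values of 0.190 to 0.193 by edgeR. With the block, Gpx3 (0.00591), Tbx2 (0.0278), Atp1b1 (0.0378) and Heyl (0.0460) rose, and 1700007K13Rik (0.0544) and Sulf1 (0.0549) did not pass. Ccdc80, Sulf1 and 1700007K13Rik were above the alveolar-rich spots of both lungs as well as above both primary tumours, at 8.16 and 30.4, 23.7 and 20.7, and 18.0 and 3.22 CPM in alveolar-rich spots. For Sulf1, a heparan sulfatase, the chosen lung spots had 33.4 and 33.2 CPM and the primary tumours 2.17 and 3.01, and for 1700007K13Rik 21.4 and 31.8 against 1.45 and 1.51. Such genes numbered 81 of the 607 that were 2-fold or more higher in both mice (13.3%), close to the 14.2% of all genes above both references in both mice. In the other lung spots of Mouse_627 the level of 1700007K13Rik was 21.2 CPM, close to that in the chosen spots. On the lower side, the 10 leading genes held 5 cytotoxic genes, Cxcl3 and Ndrg1, and 3 further genes. Fndc3a had 62.8 and 89.3 CPM against 312 and 352 (adjusted p = 0.190 by edgeR, 0.0378 with the block), and Tenm4, a teneurin of cell adhesion, had 13.4 and 21.9 against 89.2 and 104 (0.190 and 0.0367 by edgeR). Sema6d, a semaphorin, had 48.1 and 57.2 CPM against 180.5 and 176 (adjusted p = 0.190 by edgeR, 0.0548 with the block).

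**Figure D4:**
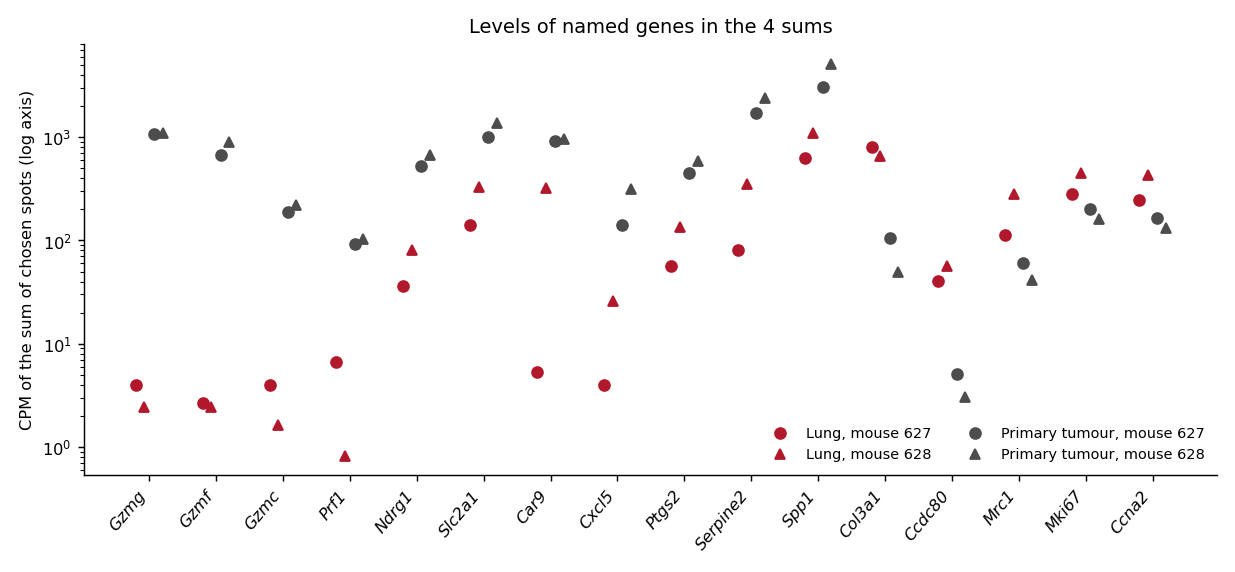
CPM of 16 named genes in the sums of chosen spots (log axis), with lungs in red and primary tumours in grey, circles for Mouse_627 and triangles for Mouse_628. Gzmg, Gzmf and Gzmc lie at 1.64 to 4.01 CPM in the lungs and at 187 to 1094 in the primary tumours, and Mki67 and Ccna2 lie highest in the lung of Mouse_628.

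Proteases and their inhibitors went both ways. Ctsl, the lysosomal protease cathepsin L, had 2158 and 5357 CPM in the lungs and 13650.0 and 14208 in the primary tumours (log2 fold change -1.99, adjusted p = 0.230 by edgeR, 0.106 with the block). Serpine2, an inhibitor of thrombin and urokinase, had 81.6 and 352 CPM against 1711 and 2382 (log2 fold change -3.33, adjusted p = 0.223 by edgeR, 0.0359 with the block). Mmp13, a collagenase, had 25.4 and 145 CPM against 644 and 666, and Mmp14, a membrane-bound metalloproteinase, had 217 and 289 against 596 and 646, without a call in either model. Timp3, a metalloproteinase inhibitor bound to matrix, had 359.6 and 147 CPM against 26.8 and 23.2 (adjusted p = 0.223 by edgeR, 0.0365 with the block), and was higher still in alveolar-rich spots (576 and 697 CPM). Of 20 tested members, 1 rose and 1 fell with the block, and 3 were 2-fold or more higher and 5 lower in both mice, while DESeq2 called 2 higher and 6 lower.

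Genes of the cell cycle were highest in the chosen lung spots of Mouse_628 and near the primary level in Mouse_627. Mki67, the proliferation antigen, had 283 and 446 CPM in the lungs and 202 and 163 in the primary tumours, and Ccna2, cyclin A, had 247 and 431 against 165 and 131. Cdk1, the mitotic kinase, had 267 and 515 CPM against 226 and 219, and was at 42.4 and 178 CPM in alveolar-rich spots. Of 23 tested mitotic genes, 14 were higher in the lung in both mice (33.6% of all genes were), and all 23 were above both the primary tumour and the alveolar-rich spots in Mouse_628 (42.2% of all genes were). The median difference in log2 CPM was 0.10 in Mouse_627 and 1.01 in Mouse_628. By edgeR 0 of the 23 passed with or without the block (7 at an unadjusted p-value under 0.05), and by DESeq2 0. DNA replication genes had medians of 0.05 and 1.11 in the 2 mice, and 0 of 25 passed (6 at an unadjusted p-value under 0.05 by edgeR, 0 calls by DESeq2). Chek1, a checkpoint kinase of replicating cells, had 74.9 and 220.5 CPM against 60.2 and 54.3.

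Replication histone genes, whose transcripts accumulate during DNA synthesis, had the largest such difference. Hist2h2bb had 963 and 2002 CPM in the lungs and 724 and 377 in the primary tumours, and Hist4h4 had 426 and 777 against 218 and 106 (adjusted p = 0.229 by edgeR). Medians over 19 tested genes were 0.24 in Mouse_627 and 2.27 in Mouse_628, and 0 passed (11 at an unadjusted p-value under 0.05 by edgeR), while DESeq2 called 5 higher. Histone genes are near-identical copies, so their separate levels are uncertain.

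Genes of epithelial-mesenchymal transition (EMT) went both ways. Vim, vimentin, had 3164 and 3524 CPM in the lungs and 6243 and 6560.1 in the primary tumours, and Axl, a receptor kinase, had 382 and 638 against 1019.8 and 949. Twist1, a transcription factor of EMT, had 24.1 and 32.6 CPM against 55.8 and 59.4. Lgals1, galectin-1, was level, with 2707 and 2734 CPM against 2747 and 2581, and Snai2, a further transcription factor of EMT, had 6.68 and 8.61 against 2.90 and 2.11. Of 14 tested EMT genes, 6 were lower in both mice (27.3% of all genes were) and 4 higher (33.6% of all genes were). By log2 CPM with the prior count of 2, which shrinks differences at low levels such as those of Snai2, 0 differed by 2-fold or more in both mice. In either model 0 passed (6 at an unadjusted p-value under 0.05 by edgeR), while DESeq2 called 1 lower. Lama5, a laminin chain of basement membranes, had 270.1 and 423 CPM against 837 and 777, and the integrin gene Itgav had 144 and 251 against 372 and 377. B2m, the light chain of MHC class I, had 2701 and 2951 CPM against 5509 and 6316 (adjusted p = 0.238 by edgeR, 0.228 with the block). Mt1 and Mt2, the metallothioneins that bind zinc and copper, had 455 and 564 CPM (Mt1) and 417 and 468 CPM (Mt2) in the lungs, against 1471 and 3531 and against 1472 and 3312. For Lama5, Itgav, B2m, Mt1 and Mt2 both lungs were below both primary tumours, but edgeR called none of them in either model. Their lists held genes of both directions, where 33.6% of all genes were higher and 27.3% lower in both mice. Of 20 basement membrane and integrin genes, 5 were higher and 12 lower in both mice. The counts were 5 and 7 of 18 antigen presentation genes, and 4 and 5 of 15 antioxidant and metallothionein genes. With the block, 2 of the last list rose, while DESeq2 called 2 of it higher and 3 lower. For basement membrane and integrin genes DESeq2 called 0 higher and 1 lower, and for antigen presentation genes 0 higher and 1 lower. Mt1 and Mt2 are near-identical, so their separate levels are uncertain.

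**Figure D5:**
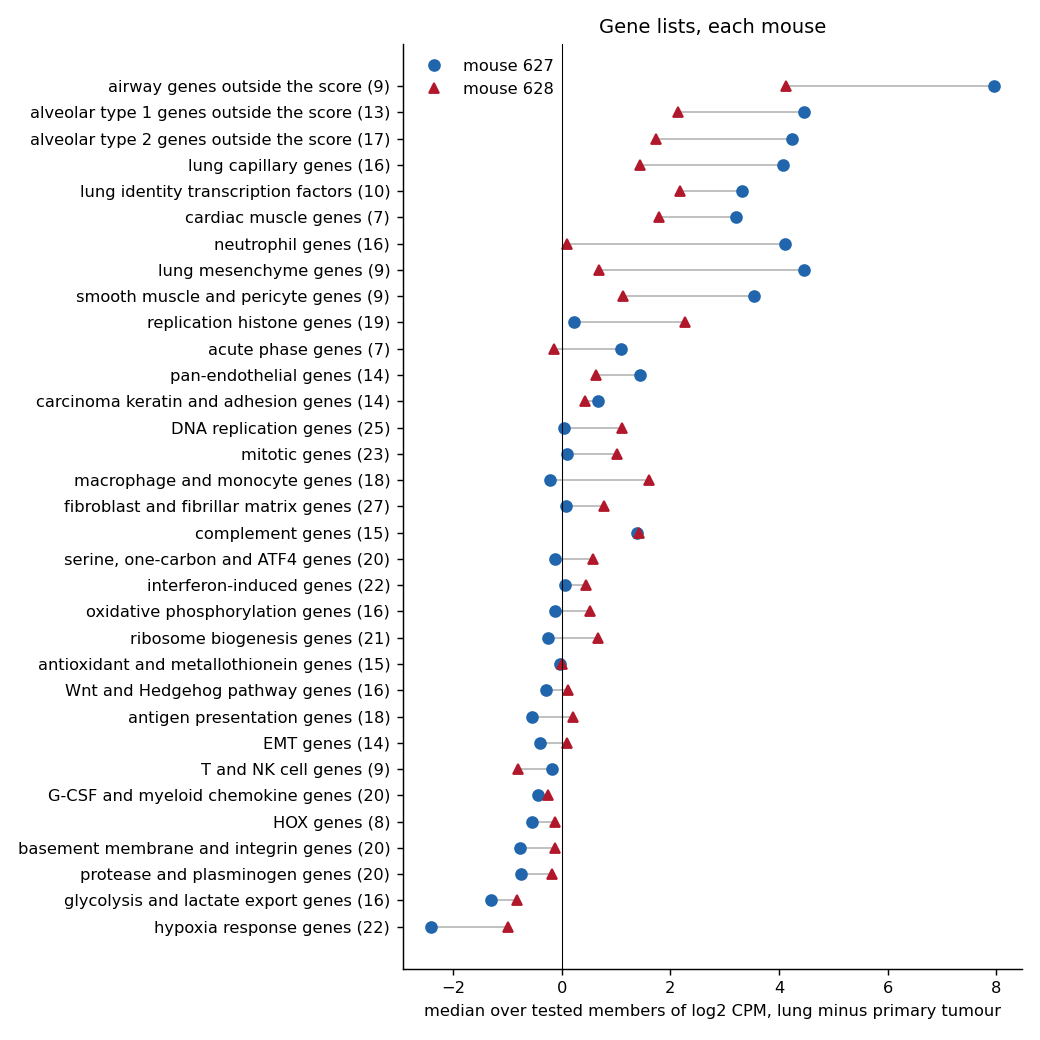
Median over the tested members of each gene list with 7 or more of them of the difference in log2 CPM between chosen lung and chosen primary tumour spots, for Mouse_627 (blue circles) and Mouse_628 (red triangles), with the number of tested members in brackets. Among the lists drawn, hypoxia response genes lie lowest, at -2.40 and -0.99, and airway genes highest, and the mice lie farthest apart for neutrophil genes (4.12 and 0.09).

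Of 14 tested endothelial genes, 8 had higher levels in the lung spots of both mice and 1 a lower level (Esm1). The shares over all genes were 33.6% higher and 27.3% lower in both mice. Cdh5, the cadherin of endothelial junctions, had 334 and 113 CPM in the lungs and 58.0 and 52.5 in the primary tumours, and Plvap, a protein of fenestrated endothelium, had 337 and 155 against 81.9 and 67.8. Tek, the angiopoietin receptor, had 82.9 and 18.0 CPM against 2.90 and 1.51 (adjusted p = 0.223 by edgeR, 0.0430 with the block). All 3 were higher still in the alveolar-rich spots, at 517 and 462, 685 and 545, and 179 and 72.9 CPM. Eng, a coreceptor of the TGF-beta family, had 266 and 158 CPM against 194 and 160.1, so the groups overlapped. Of the 14, 5 were 2-fold or more higher in both mice, 1 was 2-fold or more lower and 1 rose with the block, with a median log2 fold change of 1.01, while DESeq2 called 4 higher.

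Among 14 tested genes that the study's text discusses, 1 rose with the block (Col3a1) and 0 passed without it (6 at an unadjusted p-value under 0.05 by edgeR), while DESeq2 called 2 higher. C3, the central complement protein, had 537 and 186 CPM against 107 and 136, and Zeb1, a transcription factor of mesenchymal cells, had 28.1 and 8.61 against 5.80 and 5.12. Both were higher still in the alveolar-rich spots of each lung. The monocyte chemokine gene Ccl2 had 12.0 and 3.69 CPM against 34.8 and 18.4, and Lamb3, a laminin chain of epithelial basement membranes, had 8.02 and 12.3 against 2.90 and 0.904.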

How the data were processed

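The 4 FFPE sections (lung and primary tumour of 2 mice) had been processed by the authors with Space Ranger 2.0.0 against mm10, and the raw UMI counts per gene and spot were deposited without normalization. Median depth of the chosen spots was 5904.5 to 17520 UMIs. No doublet caller was run and no cell makeup was estimated. Spots were scored and chosen as described, UMIs were summed per section, and sums were compared in R 4.3.3 with the package edgeR 4.0.16 (filterByExpr, TMM, quasi-likelihood test, Benjamini-Hochberg, threshold 0.05), with the 11 score genes left out of the test. DESeq2 1.42.0 was an alternative. Per-mouse differences used log2 CPM with a prior count of 2. Lung and tumour sums of the same animal are paired by origin (correlation of their deviations across genes, -0.0934), and the blocked model is given where it changes a call. The scripts were tested on simulated data, where both models exceeded the nominal share of false calls. With 1 draw per model and no difference between mice, the simulation cannot rank the models. The spots, gene lists and tests were chosen with earlier results of these data known. Genes named are the score genes, the 10 leading in each direction (same direction in both mice, 20 CPM or more in the higher tissue, called ones first, then by unadjusted p), up to 4 members of each list by level and 3 by p, and genes of the study's text. Array positions shared by chosen spots of any 2 sections numbered 3 to 18. Python 3.11.15, numpy 2.4.6 and scipy 1.17.1 were used for the rest.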

Additional observations from a re-analysis of the deposited data

Results flagged for a closer look

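For 4 gene lists the log2 ratio of summed CPM between the chosen and the other spots of a section had 1 sign in both lungs and the other sign in both primary tumours, and the difference between tissues was not tested. For the keratin and the serine list in both mice, and the Wnt and Hedgehog list in Mouse_627, the primary tumour ratios were near 0. Little therefore rests on their sign there. Acute phase genes were at -0.722 and -1.75 in the lungs of Mouse_627 and Mouse_628 and at 0.239 and 0.603 in the primary tumours. Carcinoma keratin and adhesion genes were at -0.0667 and -0.272 in the lungs and 0.0252 and 0.00463 in the primary tumours. Serine, one-carbon and ATF4 genes were at 0.318 and 0.281 against -0.00877 and -0.0198. Wnt and Hedgehog pathway genes were at 0.38 and 0.223 against -0.0243 and -0.2.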

How the results depend on the processing

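The 3 genes called between chosen lung and primary tumour spots were called again with both tissues under the A ceiling, with minimums of 500 and 2000 UMIs, after thinning and with total UMIs in place of TMM (chosen after seeing the data, as were the list medians). With a stricter ceiling on A (the lower quartile), and without a ceiling, 2 of the 3 were called, Gzmc not. The number called was 6 with the top 5% by T, 1 with the top 20%, 33 with all primary tumour spots, 65 with the mouse as a replicate block, 1034 without a filter on low counts (814 higher and 220 lower) and 393 by DESeq2 (278 higher and 115 lower). The causes were not tested, except that without the filter 19146 genes were tested. Leaving out 1 sum gave 3 to 2402 calls, namely 2316 without the lung of Mouse_627, 2402 without that of Mouse_628, 271 without the primary tumour of Mouse_627 and 3 without that of Mouse_628. There the lone sum is assumed to vary like the other tissue, so these counts rest on the spread of 1 pair. Gzmg kept its call in all 18 alternatives, Gzmf in 17 and Gzmc in 15. Of 1846 comparisons of named genes with an alternative, 1420 kept their direction and call, 414 gained a call, 4 lost it and 8 reversed. Reversed were Gzma after thinning (0.020) and, leaving out 1 sum, without the lung of Mouse_628 and without the primary tumour of Mouse_627 (-0.90 to 0.16), Il1b (-2.27 to 0.15) and Mcm6 (-0.21 to 0.49) without the lung of Mouse_628, S100a9 without that of Mouse_627 (-0.81 to 3.16), and C1qa with all primary tumour spots (-0.24) and without the primary tumour of Mouse_628 (-0.034 to 1.34). Of 216 comparisons of list medians with an alternative, 209 were classed as the same, 5 moved and 2 reversed. The median of macrophage and monocyte genes reversed to -0.19 with all primary tumour spots and without the primary tumour of Mouse_628 (-0.020 to 1.47). The median of hypoxia genes moved to -2.60 and that of glycolysis genes to -1.31 without the lung of Mouse_628. With 2 mice, the depth of 747982 UMIs in the lung of Mouse_627 and the lung tissue in its spots limit what the lung side can show.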
